A study of Mus musculus with 20 samples.

Results

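The response of dendritic cells to immune complexes while BET proteins were inhibited was examined by comparing 10 of the 20 RNA-seq libraries of the series, the 5 iBET IC libraries with the 5 iBET Ova libraries. The libraries were chosen by their sample labels, which give the treatment and the mouse (A to E) of each one, and each mouse gave 1 library to either group. The cells were bone marrow-derived dendritic cells (BMDCs) of wild-type C57BL/6 mice, grown from bone marrow for 8 days with GM-CSF at 40 ng/mL. All cells of the 10 libraries received iBET (I-BET151, a small-molecule BET bromodomain inhibitor) at 3.3 μM, and either endotoxin-free ovalbumin (Ova) or ovalbumin opsonised with a polyclonal rabbit anti-ovalbumin antibody to form insoluble immune complexes (IC), for 4 hours. The DMSO Ova and DMSO IC groups, 5 libraries each from the same mice, received the same stimuli with DMSO, labelled as 5%, in place of iBET, and are used only to show where the response with iBET differed. The iBET stock was made in DMSO, and how much DMSO the iBET groups received is not given in the sources used here, so the vehicle content of the groups may differ. The labels describe iBET and the stimulus as given together, whereas the methods place iBET before the stimulus. IC and Ova differ in the antibody as well as in the insoluble form, and no group received the antibody alone, so the contributions of both to a difference cannot be told apart.

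IC bind Fcγ receptors on phagocytes. The activating receptors signal through the ITAM motif of the common γ chain (Fcer1g) to the kinase Syk and on to calcium, MAP kinase and NF-κB signalling, whereas FcγRIIb is inhibitory. Internalised IC are carried to lysosomes, where the antigen is degraded and loaded on MHC class II. BET proteins, among them BRD2 and BRD3, read acetylated histones through their bromodomains and help to release paused RNA polymerase II, and many inflammatory genes depend on them for induction. The comparison asks which parts of the IC response were measurable while this reader function was blocked.

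Libraries held 16485258 to 25285129 counts (median 21592427) in the iBET Ova group and 18855680 to 29245150 counts (median 21936899) in the iBET IC group, and their number limits the precision for genes at low levels. Values are given as CPM, the counts scaled to a common library size after TMM normalization, and differences as the log2 fold change of IC against Ova with its standard error (SE). The 10 most abundant genes took 15.5 to 18.2% of the counts with Ova and 17.8 to 19.7% with IC. Among markers of the labelled cell type, Itgax (CD11c) was at 1758 to 2602 CPM with Ova and 1919 to 2725 CPM with IC and Zbtb46, a factor of conventional dendritic cells, at 11.9 to 25.6 CPM with Ova and 15.9 to 37.2 CPM with IC, while Flt3, the receptor that marks their steady-state precursors, stayed at or below 0.572 CPM. The 6 monocyte markers summed to between 16546 and 28108 CPM with Ova and 16521 to 28364 CPM with IC, and the 9 macrophage markers to 1307 to 1698.5 CPM and 1360 to 1999 CPM, so transcripts that mark these cell types were measured in both groups. The labels describe cells sorted into lysis buffer and the methods describe lysis in culture, so whether a sort preceded these values is not settled. In such bulk samples, fewer cells of a type and less RNA per cell cannot be told apart. The summed markers of B, T and NK cells and fibroblasts were at most 0.542 CPM in any of the 10 libraries and none of them passed the filter on low counts.

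With iBET, 3601 of 12465 genes tested differed between IC and Ova at an adjusted p under 0.05 (28.9%), of which 1766 were higher with IC (14.2%) and 1835 were lower (14.7%). Most changes were small, with a median log2 fold change of 0.26 among the genes called higher and -0.36 among those called lower, and 74 genes rose (0.594%) and 63 fell (0.505%) by a log2 fold change of at least 1. The direction was the same in 5 of 5 mice for 1468 of the genes called higher and 1579 of those called lower. In a principal component analysis of the 10 libraries, the first component (38.6% of the variance) separated mice A and B from mice C, D and E, and the second (22.8%) separated every Ova library (11.1 to 24.7) from every IC library (-21.4 to -8.71). Whether these sets of mice were cultured or sequenced together is not given in the sources used here. The count was 1474 without the mouse as a block, 1458 in mice A and B only, 2038 in mice C, D and E only and 2392 without mouse D, and scaling by library size only gave 758 genes higher and 3581 lower, with the median of all genes moved by -0.11.

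Among genes that averaged 100 counts or more and moved the same way in 5 of 5 mice, the 4 largest rises were in genes of an itaconate enzyme, an activin subunit, a C-type lectin and a Ral exchange factor. Irg1 (Acod1, the enzyme that makes itaconate; chr14:103046977-103056573 on mm10) was at 3.47, 3.90, 4.43, 1.98 and 3.98 CPM in mice A to E with Ova and at 53.4, 34.6, 49.2, 47.9 and 25.03 CPM with IC, a log2 fold change of 3.55 ± 0.21 (SE, n = 5 mice; adjusted p = 1.4e-09). The groups were far apart, and mouse E had the lowest level with IC. Inhba, which encodes the activin A subunit (chr13:16011851-16031621), was at 3.88, 7.16, 3.44, 1.35 and 3.81 CPM with Ova and 22.4, 30.5, 20.7, 9.59 and 18.96 CPM with IC (2.41 ± 0.20, adjusted p = 8.7e-08). Mouse D had the lowest level in either group and the groups did not overlap. Clec4e, the C-type lectin Mincle, which signals through the same γ chain as the activating Fcγ receptors (chr6:123281789-123289870), was at 15.3, 16.6, 9.28, 6.75 and 10.3 CPM with Ova and 82.1, 61.7, 37.05, 57.8 and 43.7 CPM with IC (2.30 ± 0.15, adjusted p = 3e-09). Ralgds, an exchange factor for Ral GTPases (chr2:28513125-28553081), was at 60.5, 50.8, 58.04, 41.5 and 57.7 CPM with Ova and 262, 228, 326, 208 and 239 CPM with IC (2.23 ± 0.09, adjusted p = 1.3e-11). Here too no IC library reached down to the highest Ova library.

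The stretches before the transcription starts of these 4 genes are shown because they had the largest rises among genes with that many counts, to let the promoters of genes that rose together be set side by side. Each is the 250 bases before a RefSeq start (GRCm38.p6), 5′ to 3′ on the strand of the gene, with the matches to 10 short motifs in capitals. The windows follow RefSeq, whose starts for Irg1, Clec4e and Ralgds are not those of the GENCODE models whose positions are given above. Ralgds has windows at a pair of alternative starts.
Irg1, chr14:103046762-103047011 (plus strand): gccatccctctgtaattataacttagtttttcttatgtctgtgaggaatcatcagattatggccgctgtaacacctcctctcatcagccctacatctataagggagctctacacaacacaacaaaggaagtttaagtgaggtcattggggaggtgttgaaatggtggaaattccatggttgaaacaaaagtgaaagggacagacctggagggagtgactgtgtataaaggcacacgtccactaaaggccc
Inhba, chr13:16011601-16011850 (plus strand): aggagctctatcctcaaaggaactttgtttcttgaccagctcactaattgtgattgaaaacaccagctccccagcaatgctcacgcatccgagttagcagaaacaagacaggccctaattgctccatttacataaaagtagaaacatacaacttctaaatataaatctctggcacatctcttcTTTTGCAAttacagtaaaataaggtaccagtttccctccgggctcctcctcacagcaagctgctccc
Clec4e, chr6:123289872-123290121 (minus strand): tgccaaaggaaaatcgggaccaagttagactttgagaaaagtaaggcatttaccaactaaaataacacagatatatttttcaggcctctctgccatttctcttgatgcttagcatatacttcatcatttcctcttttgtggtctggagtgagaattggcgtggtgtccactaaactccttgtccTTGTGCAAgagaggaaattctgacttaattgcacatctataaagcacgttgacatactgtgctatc
Ralgds, chr2:28512917-28513166 (plus strand): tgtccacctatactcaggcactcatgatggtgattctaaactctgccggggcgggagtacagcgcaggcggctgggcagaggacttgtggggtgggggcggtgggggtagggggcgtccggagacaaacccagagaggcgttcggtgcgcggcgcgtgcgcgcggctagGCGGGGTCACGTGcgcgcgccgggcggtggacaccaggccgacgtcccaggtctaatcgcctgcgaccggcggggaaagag
Ralgds, chr2:28533214-28533463 (plus strand): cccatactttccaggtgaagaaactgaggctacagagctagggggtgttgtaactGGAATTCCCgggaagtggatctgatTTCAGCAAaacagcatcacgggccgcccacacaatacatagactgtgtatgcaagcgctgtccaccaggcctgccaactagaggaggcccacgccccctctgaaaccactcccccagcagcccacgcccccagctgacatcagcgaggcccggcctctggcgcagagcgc
On both strands, the C/EBP motif TTGCNNAA was matched 67 bases before the start of Inhba and 66 bases before that of Clec4e, and once in the second Ralgds window, and 9.56% of 32851 promoter windows of this length and 9.15% of those of 9631 genes tested hold it. The first Ralgds window holds the E-box CACGTG (6.02% of windows, 10% of genes tested) overlapping by 2 bases an antioxidant response element TGACNNNGC (10.2% and 14.1%), and the second also holds the short NF-κB motif GGGNNTTCC (4.98% and 7.44%). The Irg1 window holds none of the 10 motifs. A match is a description of letters and was not tested as a binding site.

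The next genes by size were an inflammatory cytokine, a chemokine and stress-related genes. Il1b, the pro-inflammatory cytokine IL-1β, was at 2.75, 3.90, 4.20, 3.06 and 4.73 CPM with Ova and at 11.6, 14.01, 17.4, 16.1 and 23.97 CPM with IC (2.16 ± 0.26, adjusted p = 7.6e-06). Cxcl2, a neutrophil chemoattractant, was at 12.4, 17.3, 9.28, 2.97 and 7.66 CPM with Ova and 51.4, 65.1, 43.3, 23.5 and 29.6 CPM with IC (2.15 ± 0.19, adjusted p = 1.8e-07). For both genes all 5 mice rose and the ranges were separate, although mouse D had a Cxcl2 level well below that of the others in the Ova group. Hmox1, haem oxygenase 1, went from 139, 143, 119, 122 and 129 CPM to 504, 453, 655, 547 and 458 CPM (2.00 ± 0.13, adjusted p = 5.5e-09), and Slc7a11, the cystine transporter that feeds glutathione synthesis, from 155, 154, 109.8, 61.2 and 92.9 CPM to 427, 448, 499.8, 363 and 336 CPM (1.91 ± 0.14, adjusted p = 2.2e-08). Hmox1 varied little between mice within either group. The other 4 of the 12 largest rises were Rilpl2 (1.92 ± 0.09), an effector of Rab GTPases, Gdf15 (1.92 ± 0.13), a stress-induced cytokine, Bhlhe41 (1.89 ± 0.12), a transcriptional repressor of the circadian clock, and Hilpda (1.87 ± 0.16), a hypoxia-induced lipid droplet protein. In all 12 of these genes the CPM ranges of the groups did not overlap, which was the case for 4.57% of all genes tested in this direction. The genes were chosen by large changes in these same libraries, which favours separate ranges, so the comparison is no support for them.

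**Figure D1:**
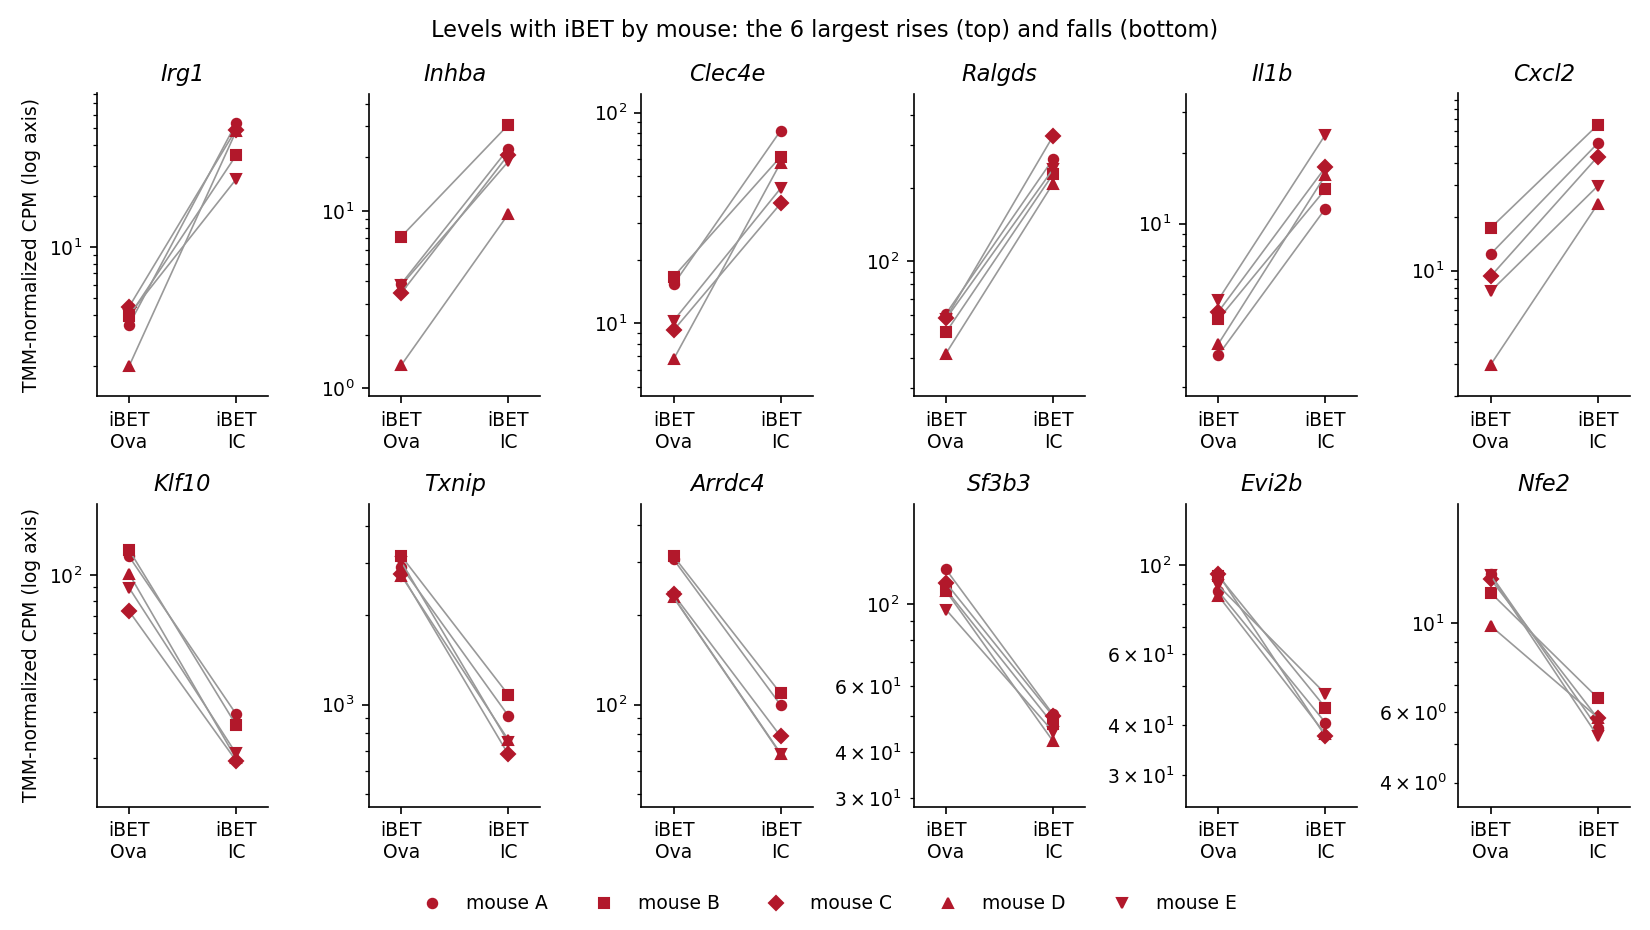
CPM after TMM normalization (log axis) in the iBET Ova and iBET IC library of each mouse, for the 6 genes with the largest rise (top) and the 6 with the largest fall (bottom), with 1 symbol a mouse and a line joining the libraries of a mouse. Every line of the top row goes up and every line of the bottom row goes down, and the groups do not overlap in any of the 12 panels.

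Under the same limits, the largest falls included metabolic and transcriptional regulators. Klf10, a TGF-β-inducible transcription factor (chr15:38291463-38300706), fell from 118, 125, 72.98, 101 and 89.6 CPM with Ova to 29.5, 26.7, 19.5, 19.9 and 20.8 CPM with IC (-2.12 ± 0.08, adjusted p = 1.7e-12). Txnip, the thioredoxin-interacting protein that restrains glucose uptake (chr3:96557957-96561883), went from 2919, 3169, 2757, 2721 and 3032 CPM to 917, 1079, 679.8, 761 and 747 CPM (-1.82 ± 0.06, adjusted p = 1.6e-12). Its α-arrestin relative Arrdc4 (chr7:68736995-68749241), which is regulated by glucose through the same transcription factors, went from 307, 315, 234, 229.9 and 229 CPM to 99.7, 109, 78.2, 68.5 and 68.2 CPM (-1.64 ± 0.06, adjusted p = 1.7e-12). All 3 genes were lower with IC in each mouse and their groups were far apart. Sf3b3, a component of the U2 snRNP that recognises the branch point of introns (chr8:110810239-110846787), had 124, 109, 114, 108 and 96.5 CPM with Ova and 50.5, 47.5, 49.99, 42.8 and 45.4 CPM with IC (-1.22 ± 0.05, adjusted p = 1.7e-12). Each group varied little between mice, and the ranges were well separated. Myc, the growth-promoting transcription factor, had 25.1, 23.2, 48.8, 18.3 and 40.9 CPM with Ova and 9.36, 12.2, 26.8, 9.54 and 20.97 CPM with IC (-1.01 ± 0.12, adjusted p = 7.8e-06), and its groups overlapped, mice C and E being higher than the others in both. The call for Myc was lost without the mouse as a block (adjusted p = 0.077). The other 7 were Evi2b (-1.12 ± 0.06), a membrane protein of granulocyte differentiation, the haematopoietic transcription factor Nfe2 (-1.09 ± 0.10), the glycine transporter Slc6a9 (-1.05 ± 0.13), the collagen gene Col20a1 (-1.05 ± 0.14), the microtubule-associated Mtus1 (-1.04 ± 0.11), Tifab (-0.98 ± 0.10), a relative of the TRAF6-binding protein TIFA, and the phosphodiesterase Pde1b (-0.98 ± 0.11). Of the 12 falls, 10 had groups that did not overlap (5.46% of all genes tested in this direction), the exceptions being Myc and Pde1b. Here too the choice of the genes favours separate ranges. In mice A and B only and in mice C, D and E only, all 12 rises and all 12 falls kept their direction and passed the test. Their direction there followed from the choice, which asked for the same direction in 5 of 5 mice. The same mice chose the genes, so these calls are no replication.

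**Figure D2:**
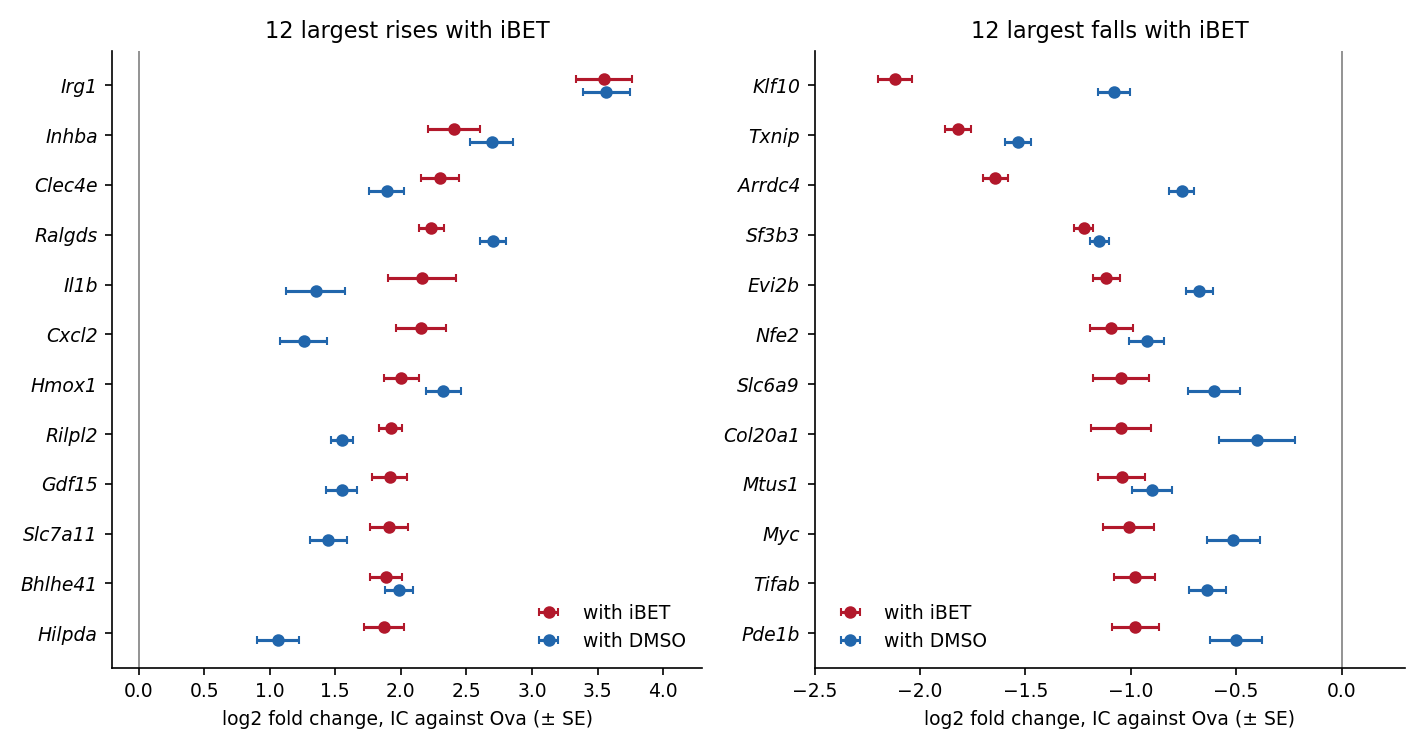
Log2 fold change of IC against Ova (x axis, error bars are the SE of the fit over 5 mice) for the 12 largest rises (left) and 12 largest falls (right) with iBET, in red with iBET and in blue with DMSO. Irg1 is at 3.55 with iBET and 3.57 with DMSO, while Klf10 and Arrdc4 fell further with iBET.

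Genes of Fc receptors and their proximal signalling moved in both directions, with 11 of 43 called higher and 8 called lower (25.6% and 18.6%, beside 14.2% and 14.7% of all genes tested, with a median log2 fold change -0.01, against -0.01 over all genes tested). Scaling by library size only turned this balance to 5 higher and 14 lower, with a median of -0.12. The common γ chain gene Fcer1g was at 313, 256, 231, 242 and 249.9 CPM with Ova and 354, 329, 271, 286 and 252 CPM with IC (0.21 ± 0.05, adjusted p = 0.0041). That is a small rise in each mouse within overlapping ranges, and it was not called when libraries were scaled by size only (adjusted p = 0.1) or without the mouse as a block (0.26). Fcgr1, the high-affinity activating receptor, was at 16.1, 16.9, 14.1, 12.9 and 13.4 CPM with Ova and 14.5, 15.5, 13.04, 12.4 and 8.73 CPM with IC (-0.21 ± 0.07, adjusted p = 0.043), a call that leaving out any single mouse removed. The activating Fcgr3 (0.16 ± 0.07, adjusted p = 0.091) and the inhibitory Fcgr2b (-0.01 ± 0.08, adjusted p = 0.92) did not pass the test, which Fcgr3 passed without mouse E (adjusted p = 0.021). Fcgr4 did not exceed 0.74 CPM and gave no call (0.10 ± 0.33). Downstream, Syk rose from 201, 207, 208, 216 and 216 CPM to 287, 261, 273, 278 and 281 CPM (0.40 ± 0.04, adjusted p = 3.6e-06), while Card9, the adaptor that couples Syk to NF-κB, fell (-0.50 ± 0.05, adjusted p = 2.7e-06) and its partner Malt1 rose (0.45 ± 0.07). The guanine nucleotide exchange factor Vav1 rose (0.34 ± 0.05), and the phosphatase Ptpn6 (SHP-1) and the inhibitory adaptor Dok2 fell (-0.37 ± 0.07 and -0.39 ± 0.07). Beside them, Blnk, a B cell linker protein that serves as a Syk substrate, named after its values were seen, gave 0.30 with iBET and -0.20 with DMSO, and its responses differed (adjusted p = 0.014). With Ova and IC, Blnk averaged 7.70 and 9.43 CPM with iBET, against 41.96 and 36.7 CPM with DMSO.

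NF-κB subunits and inhibitors had 16 of 31 genes called higher (51.6%) and 3 lower (9.68%), with a median of 0.21. Among all genes tested the shares were 14.2% and 14.7%. The 4 with the smallest p, Tnip3, Tnip1, Nfkbia and Tnfaip3, encode negative regulators. Nfkbia, which encodes IκBα and is itself an NF-κB target, was at 96.3, 87.02, 164, 150.1 and 175 CPM with Ova and 249, 239, 275, 253 and 256 CPM with IC (0.97 ± 0.11, adjusted p = 4.2e-06). Tnfaip3, the deubiquitinase A20, was at 10.4, 10.7, 19.8, 18.7 and 14.1 CPM and 24.9, 27.1, 32.2, 33.1 and 30.9 CPM (1.04 ± 0.12, adjusted p = 5e-06), and its partners Tnip1 and Tnip3 rose by 0.63 and 0.97. For Nfkbia and Tnfaip3 the Ova levels of mice A and B were the lowest, and the IC libraries lay above all Ova libraries. The 3 genes called lower, named after their values were seen, were the kinases Ikbkb (-0.23) and Ikbke (-0.37) and Tnip2 (-0.18). Immediate early and AP-1 factors were split, with 11 of 36 higher and 7 lower (30.6% and 19.4%, beside 14.2% and 14.7% of all genes tested). Atf3 (0.82 ± 0.09), Maff (1.04 ± 0.15), Mafk (0.47 ± 0.07) and Bhlhe40 (0.49 ± 0.07) rose, whereas Klf10 and Myc fell as described. Of 20 feedback inhibitors of MAP kinases, 4 were higher (20%) and 1, the ERK phosphatase Dusp6 (-0.46 ± 0.14, adjusted p = 0.017), was lower (5%). The 4 were Dusp3 (0.38), Gadd45b (0.34), Dusp10 (0.33) and Dusp1 (0.30). With scaling by library size only, the median of the immediate early list changed sign to -0.04.

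Of 31 cytokine and growth factor genes tested, 13 were called higher (41.9%) and 1 lower (3.23%), with a median of 0.39. Among all genes tested the shares were 14.2% and 14.7%. The gene called lower was Pdgfb (-0.78), named after its values were seen. Il1a was at 10.5, 13.1, 12.02, 5.27 and 9.62 CPM with Ova and 35.4, 37.3, 36.2, 23.5 and 25.4 CPM with IC (1.66 ± 0.11, adjusted p = 3.9e-09). Tnf went from 19.8, 12.6, 20.01, 6.35 and 15.8 CPM to 35.04, 32.4, 47.5, 18.6 and 26.4 CPM (1.12 ± 0.17, adjusted p = 9.5e-05). It rose in every mouse, but mouse D with IC was below the highest Ova libraries. Il12b, the shared subunit of IL-12 and IL-23, was at 0.889, 0.542, 1.57, 1.71 and 1.67 CPM with Ova and 2.52, 3.37, 4.55, 5.96 and 2.89 CPM with IC (1.59 ± 0.18, adjusted p = 3.2e-06). Il6 was at 0.566, 0.922, 0.467, 0.405 and 0.418 CPM with Ova and 1.04, 0.985, 0.724, 0.572 and 0.723 CPM with IC. It was higher with IC in 5 of 5 mice and missed the threshold (0.57 ± 0.21, adjusted p = 0.058), which it passed without mouse B (adjusted p = 0.039). Spp1, osteopontin, rose by 0.91 ± 0.09. The 9 genes of this list that were not tested for low counts include Il10, Il23a, Ifnb1 and Csf2, each with at most 4 counts in any library.

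Chemokine ligands had 14 of 19 called higher (73.7%, beside 14.2% of all genes tested). By edgeR 0 were called lower (0 at an unadjusted p under 0.05 and 0 by DESeq2), beside 14.7% of all genes tested. All 19 had a log2 fold change above 0 (median 0.50). Ccl3, an inflammatory CC chemokine, was at 12.2, 8.73, 8.98, 4.05 and 6.57 CPM with Ova and 29.3, 24.5, 27.6, 14.9 and 21.6 CPM with IC (1.58 ± 0.14, adjusted p = 3.5e-07), and Ccl4, its close relative, at 0.808, 0.759, 0.7, 0.495 and 1.59 CPM and 2.55, 2.54, 3.36, 1.86 and 3.84 CPM (1.66 ± 0.26, adjusted p = 0.00011). The ligands of CCR4, Ccl17 (0.52 ± 0.07) and Ccl22 (0.39 ± 0.07), rose by less from far higher starting levels, with Ccl22 at 294, 219.6, 914, 831 and 833 CPM with Ova and 327, 310.0, 1236, 1133 and 1128 CPM with IC. Ccl22 in mice A and B was below the level in mice C, D and E whatever the stimulus, and its groups overlapped although each mouse rose. Of 8 chemokine receptors tested, Cxcr4 (0.53 ± 0.08), Ccrl2 (1.31 ± 0.21) and Ccr7 were called higher and 1 was called lower. These are 37.5% and 12.5%, beside 14.2% and 14.7% of all genes tested. Ccr2, the receptor by which monocytes leave the bone marrow, was at 13.3, 15.2, 14.5, 16.2 and 15.7 CPM with Ova and 17.4, 16.6, 12.99, 18.5 and 11.5 CPM with IC (0.05 ± 0.17, adjusted p = 0.84), whereas with DMSO it fell (-1.17 ± 0.15), and the responses differed (adjusted p = 0.014). In the DMSO groups Ccr2 averaged 487 ± 153 CPM with Ova and 219 ± 87.1 CPM with IC (mean ± SD). Its level with iBET was thus far below both, with Ova as with IC.

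Ccr7, the receptor that guides mature dendritic cells to lymph nodes, showed the same separation of mice. It was at 138, 109.7, 467, 433 and 506 CPM with Ova and 154, 156, 595, 556 and 585 CPM with IC (0.31 ± 0.09, adjusted p = 0.016). It was higher with IC in every mouse, and the distance between mice was larger than the rise. The call was lost without the mouse as a block (adjusted p = 0.77) and without mouse C or mouse D (0.074 and 0.066). Maturation and migration genes had 11 of 29 called higher (37.9%) and 3 lower (10.3%), beside 14.2% and 14.7% of all genes tested (median 0.21). The 3 called lower were Dock8 and, named after their values were seen, Socs2 (-0.33) and Icosl (-0.31). With scaling by library size only, 6 of the list were higher and 4 lower, with a median of 0.10. Cd274, the inhibitory ligand PD-L1, was at 68.8, 66.4, 97.8, 55.98 and 70.1 CPM with Ova and 124, 115, 179, 115 and 161 CPM with IC (0.95 ± 0.09, adjusted p = 5.5e-07), and the sheddase Adam8 rose by 0.71 ± 0.05 (adjusted p = 1.9e-08). Co-stimulatory genes gave 1 call of 3. Cd86 (0.17 ± 0.08, adjusted p = 0.11) and Cd40 (0.06 ± 0.17, adjusted p = 0.83) did not pass the test, although Cd86 passed it in a blocked fit of the 10 iBET libraries alone (adjusted p = 0.034). Cd80 passed it (0.45 ± 0.16, adjusted p = 0.036) with a rise in 3 of 5 mice, from 1.94, 2.98, 5.25, 3.24 and 4.02 CPM to 1.78, 2.73, 7.87, 5.15 and 7.12 CPM. Mice A and B were lower with IC, and leaving out mouse C, D or E, or the mouse as a block, removed the call (adjusted p of 0.15, 0.16, 0.16 and 0.59). Dock8, a Cdc42 exchange factor that dendritic cells need to move through tissue, fell in 5 of 5 mice from 108, 114, 131, 144 and 117 CPM to 61.7, 68.7, 91.95, 85.9 and 113 CPM (-0.58 ± 0.10, adjusted p = 0.0005). Mouse E differed least, with an IC level above the lowest Ova library, and the call was lost without the mouse as a block (adjusted p = 0.068).

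Antigen processing and lysosomal genes were broadly higher, beside 14.2% of all genes tested called higher and 14.7% called lower. MHC class II presentation genes had 10 of 14 called higher (71.4%) and 0 lower (0 at an unadjusted p under 0.05 and 0 by DESeq2). They were led by H2-Eb1 (0.41 ± 0.05), H2-Aa (0.35 ± 0.05), H2-Ab1 (0.35 ± 0.06) and the invariant chain Cd74 (0.27 ± 0.05). H2-Eb1 was at 127, 101, 243, 313 and 247 CPM with Ova and 160.3, 141, 332, 437 and 305 CPM with IC, again lower in mice A and B than in the others. Lysosome genes had 32 of 44 called higher (72.7%) and 0 lower (1 at an unadjusted p under 0.05, 0 by DESeq2), with a median of 0.26. Lipa, the acid lipase, was at 725, 613, 448, 490.2 and 496 CPM with Ova and 1103, 855, 717, 800.1 and 660.0 CPM with IC (0.58 ± 0.06, adjusted p = 1.5e-06), and Ctsb, the protease cathepsin B, at 4517, 3348, 2569.7, 2661 and 2804 CPM and 5928, 4725, 3799.5, 3932 and 3656 CPM (0.48 ± 0.06, adjusted p = 6.5e-06). The groups overlapped for both, mouse A being highest in either group, and each mouse rose. Subunits of the proton pump were among those with the smallest p, namely Atp6v0c (0.55 ± 0.06), Atp6v1a (0.50 ± 0.06) and Atp6v1d (0.50 ± 0.06). Among scavenger receptors and cholesterol efflux genes, 5 of 15 were higher (33.3%) and 0 lower (1 at an unadjusted p under 0.05, 0 by DESeq2). Of the 5, Olr1 (LOX-1), a receptor for oxidised LDL, was at 25.3, 25.5, 27.4, 18.9 and 22.6 CPM with Ova and 72.7, 59.7, 82.7, 53.8 and 65.5 CPM with IC (1.48 ± 0.09, adjusted p = 1.5e-09). The other 4 were Cd68 (0.38), Cd36 (0.35), Plin2 (0.33) and Trem2 (0.22). With scaling by library size only, the scavenger receptor and efflux list had 4 higher and 3 lower and the lysosome list 24 and 3. The MHC class II list then had 6 higher. Of the 7 NADPH oxidase genes 4 were called higher (57.1%), at 0.16 to 0.27, and none of them with scaling by library size only.

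Antioxidant targets of the transcription factor NRF2 had 20 of 24 called higher (83.3%) and a median of 0.40. Called lower were 0 (1 at an unadjusted p under 0.05, 0 by DESeq2). Among all genes tested, 14.2% were called higher and 14.7% lower. Srxn1, sulfiredoxin, was at 139, 119, 106, 92.8 and 111 CPM with Ova and 357, 289.9, 414, 353 and 312 CPM with IC (1.61 ± 0.09, adjusted p = 9.9e-10). Txnrd1, thioredoxin reductase, was at 357, 329, 355, 301 and 355 CPM and 619.8, 557, 714, 596 and 612 CPM (0.87 ± 0.06, adjusted p = 5.8e-09). Both were well separated between the groups. The iron storage subunit Fth1 rose by 0.68 ± 0.09 and metallothionein Mt1 by 0.65 ± 0.08. Fth1 has processed pseudogenes that can share its reads, so its value is uncertain.

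Several metabolic lists had higher shares called higher than the 14.2% of all genes tested, of which 14.7% were called lower. Itaconate, arginine and nitric oxide genes had 8 of 9 called higher (88.9%) and 0 lower (0 at an unadjusted p under 0.05 and 0 by DESeq2). Besides Irg1 they included Nos2, the inducible nitric oxide synthase, at 0.202, 0.38, 0.117, 0 and 0.167 CPM with Ova and 0.888, 1.29, 1.66, 1.53 and 1.00 CPM with IC (2.84 ± 0.43, adjusted p = 9.1e-05), a change between very low levels. Arg2 (0.92 ± 0.14), the arginine transporter Slc7a2 (0.50 ± 0.07), Odc1 (0.42 ± 0.07) and Sod2 (0.44 ± 0.07) rose by less. Glycolysis and HIF target genes had 16 of 36 higher (44.4%) and 0 lower (1 at an unadjusted p under 0.05, 0 by DESeq2). Hk2, the inducible hexokinase, was at 85.1, 104, 105, 81.4 and 96.6 CPM with Ova and 177, 191, 192, 142 and 153 CPM with IC (0.85 ± 0.06, adjusted p = 2.5e-08), while Pgam1 (0.45 ± 0.05), Pgk1 (0.26 ± 0.05) and Ldha (0.29 ± 0.06) changed by under 0.5. With scaling by library size only 7 of this list were higher and 2 lower. Subunits of oxidative phosphorylation had 21 of 36 called higher (58.3%) and 0 lower (0 at an unadjusted p under 0.05 and 0 by DESeq2), each by a log2 fold change between 0.13 and 0.31. With scaling by library size only 3 of them were higher and 1 lower.

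**Figure D3:**
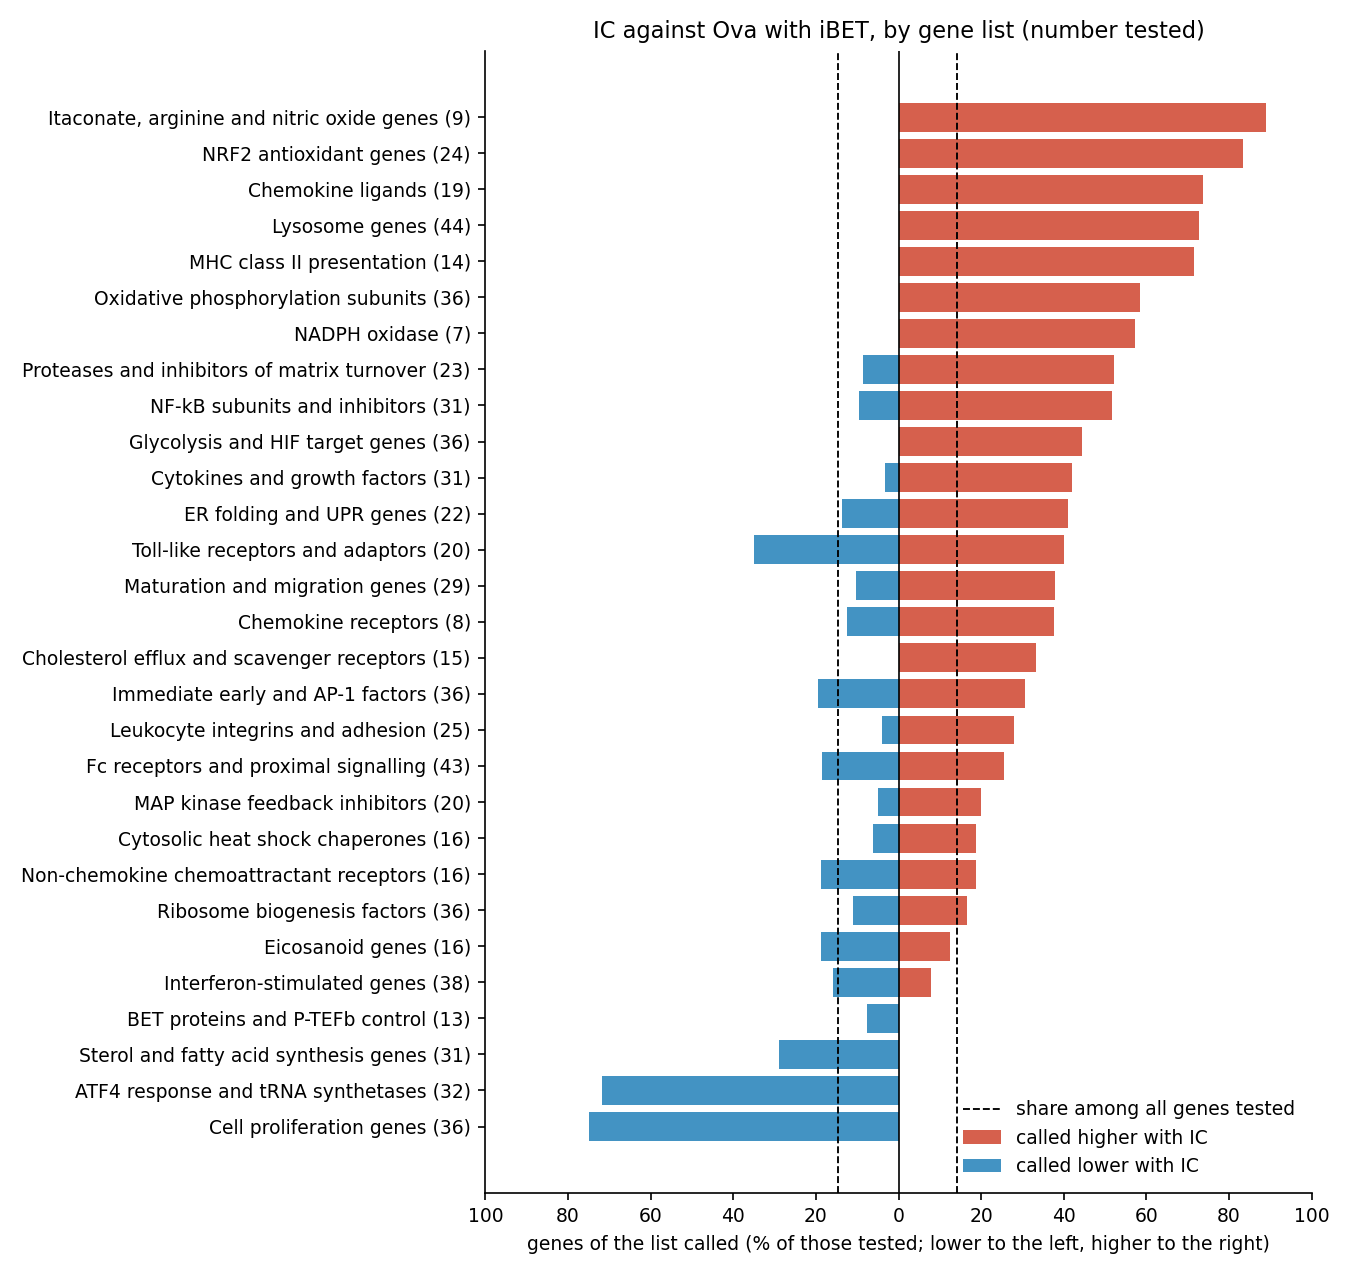
Percentage of the tested genes of each of 29 lists called higher (red, to the right) or lower (blue, to the left) with IC in the presence of iBET, with the number tested in brackets and the share among all genes tested as dashed lines (14.2% higher, 14.7% lower). Lists of itaconate, NRF2, chemokine ligand and lysosome genes reach furthest to the right, and the proliferation and ATF4 lists furthest to the left.

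Cell proliferation genes fell. Of 36 tested, 27 were called lower (75%) and 0 higher (1 at an unadjusted p under 0.05, 0 by DESeq2), with a median of -0.32. Among all genes tested, 14.7% were called lower and 14.2% higher. The mitotic activator Cdc20 was at 13.7, 10.95, 10.2, 10.4 and 9.42 CPM with Ova and 7.14, 8.14, 5.33, 5.58 and 4.67 CPM with IC (-0.83 ± 0.09, adjusted p = 1.5e-06), and the spindle motor Kif11 at 39.2, 41.3, 38.5, 36.97 and 33.3 CPM and 25.9, 27.9, 25.05, 26.4 and 18.2 CPM (-0.62 ± 0.06, adjusted p = 9.7e-07). Both were lower in 5 of 5 mice without overlap. Cenpf (-0.83 ± 0.09), Birc5 (-0.64 ± 0.07) and Nusap1 (-0.64 ± 0.08) fell by similar amounts. Of 32 genes of the ATF4 response and the tRNA synthetases, 23 were called lower (71.9%), with a median of -0.32. Called higher were 0 (1 at an unadjusted p under 0.05, 0 by DESeq2). Trib3, a pseudokinase induced by ATF4, was at 91.98, 105, 110.1, 70.03 and 115 CPM with Ova and 52.9, 76.4, 60.3, 42.6 and 67.02 CPM with IC (-0.72 ± 0.08, adjusted p = 2.6e-06). The methionyl and cysteinyl tRNA synthetases Mars and Cars fell by 0.50 ± 0.05 and 0.44 ± 0.05 on the log2 scale, and the glutamine transporter Slc1a5 by 0.38 ± 0.06. The cystine transporter gene Slc7a11, which ATF4 can induce too, was on the NRF2 list and rose, as given above.

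Sterol and fatty acid synthesis genes had 9 of 31 called lower (29%) and 0 higher (1 at an unadjusted p under 0.05, 0 by DESeq2). Scd2, a stearoyl-CoA desaturase, was at 312, 237, 314, 314 and 263 CPM with Ova and 180.4, 162, 179.8, 177 and 167 CPM with IC (-0.73 ± 0.04, adjusted p = 2.1e-09), and the fatty acid elongase Elovl6 fell too (-1.09 ± 0.14, adjusted p = 2.2e-05). Interferon-stimulated genes had 3 of 38 higher (7.89%) and 6 lower (15.8%), beside 14.2% and 14.7% of all genes tested. The 3 higher were Gbp2 (0.28), Rsad2 (1.67) and Bst2 (0.29), the last named after its values were seen. Rsad2 was low throughout, at 1.09, 0.976, 0.875, 0.405 and 1.00 CPM with Ova and 2.52, 2.54, 2.64, 4.86 and 1.67 CPM with IC. Genes of protein folding in the endoplasmic reticulum and of the unfolded protein response had 9 of 22 higher (40.9%) and 3 lower (13.6%). The lower were the stress sensor Ern1 (-0.30), Sel1l (-0.18) and Xbp1 (-0.21), named after their values were seen. Creld2 (0.49 ± 0.07), Manf (0.33 ± 0.05) and Calr (0.43 ± 0.09) were among those that rose. Manf rose less than with DMSO (0.69, adjusted p of the difference 0.024). With scaling by library size only, 5 genes of this list were higher and 5 lower, with a median of 0.02. Toll-like receptors and adaptors were split, 8 of 20 higher (40%) and 7 lower (35%), with Irak2 (0.60 ± 0.06) and Tlr2 (0.57 ± 0.11) higher and Tlr8 (-0.71 ± 0.10) lower. Proteases and inhibitors of matrix turnover had 12 of 23 higher (52.2%), among them Mmp19 (0.67 ± 0.07). The 2 lower (8.7%) were Timp3 (-0.72) and Adam19 (-0.47), named after their values were seen.

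The next lists had shares called that were mostly near the 14.2% higher and 14.7% lower of all genes tested. Leukocyte integrins and adhesion genes had 7 of 25 higher, led by the β3 integrin Itgb3 (1.13 ± 0.10), and 1 lower, Itga6 (-0.30), named after its values were seen. At 28% higher and 4% lower, this list was the furthest of them from the shares of all genes. Among chemoattractant receptors other than those for chemokines, the chemerin receptor Cmklr1 (0.76), the platelet-activating factor receptor Ptafr (0.63) and P2ry14 (0.35) rose, and P2ry6 (-0.73), the complement receptor C3ar1 (-0.33) and P2ry13 (-0.69) fell, of 16 tested (18.8% each way). Of 16 eicosanoid genes, the prostacyclin receptor Ptgir (0.90) and Ptges2 (0.21) rose, and the cyclooxygenase 1 gene Ptgs1 (-0.26), Alox5 (-0.22) and Alox15 (-0.28) fell (12.5% higher and 18.8% lower). The inducible cyclooxygenase Ptgs2 had 1.34 ± 0.58 and did not pass the test (adjusted p = 0.091). Of 16 cytosolic chaperones, Hspe1 (0.24), Hsp90ab1 (0.24) and Hsp90aa1 (0.28) rose and Hspa8 (-0.17) fell (18.8% and 6.25%). Ribosome biogenesis factors had 6 of 36 higher and 4 lower (16.7% and 11.1%), the latter being Bop1 (-0.25), Ppan (-0.27), Nop14 (-0.19) and Nop56 (-0.16), the last pair named after their values were seen. Under scaling by library size only, the medians of the chemokine receptor, eicosanoid, chaperone and ribosome biogenesis lists turned to -0.05, -0.01, -0.09 and -0.05.

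The targets of the inhibitor and their partners in P-TEFb control had 1 of 13 lower and 0 higher (0 at an unadjusted p under 0.05 and 0 by DESeq2). The share called lower was 7.69%, beside 14.7% of all genes tested. The gene called lower was Brd2, at 1222, 1283, 1230.1, 1099 and 1189 CPM with Ova and 1044, 1169, 1112, 956 and 1043 CPM with IC (-0.18 ± 0.06, adjusted p = 0.044), and its call was lost without mouse A, C, D or E. Brd3 (-0.13 ± 0.05, adjusted p = 0.072) did not pass the test.

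Some markers of cell types were called as well, beside 14.2% of all genes tested called higher and 14.7% called lower. Of the monocyte markers 1 of 6, Cd14 (0.34), was higher (16.7%, near the share of all genes). Macrophage markers had 6 of 9 called higher (66.7%) and 1, Fcgr1, lower (11.1%). Dendritic cell markers had 5 of 10 higher (50%), including Zbtb46 (0.43), and 1, Batf3 (-0.49), lower (10%). The complement genes C1qa (0.37), C1qb (0.41) and C1qc (0.42) were among the macrophage markers that rose with iBET, and with DMSO they gave 0.07, 0.04 and 0.04 and were not called. No macrophage marker passed the test of the difference between the responses, so these rises are not shown to be particular to iBET. Eosinophil markers had 3 of 6 higher (50%), at a summed level of 57.0 to 143 CPM with Ova and 73.8 to 186 CPM with IC. They include Ear2 (0.71), a member of a family of near-identical ribonuclease genes whose counts are uncertain. Ear2 gave -0.08 with DMSO, and its responses differed (adjusted p = 0.034). Neutrophil markers summed to 18.8 to 49.3 CPM with Ova and 18.4 to 36.9 CPM with IC, and 1 of 8 was lower, S100a9 (-0.34), which is 12.5% and near the share of all genes. Of 3 mast cell and basophil markers Cpa3 (0.77) was higher, at a summed level of 10.5 to 33.6 CPM with Ova and 10.3 to 36.3 CPM with IC, and neither of 2 haemoglobin genes was called. The part of these markers in the changes of other genes was not tested.

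The same stimulus without the inhibitor called 4755 genes of 12465 (38.1%), 2284 higher (18.3%) and 2471 lower (19.8%). Of the 3601 genes called with iBET, 2718 were called in the same direction with DMSO, which is 75.5% of the iBET calls and 57.2% of the DMSO calls, and 11 were called in opposite directions. The shared count was 1700 without mouse C, 1719 without mouse D and 1113 without the mouse as a block. Both comparisons come from the same mice but share no library. Genes that rose with DMSO by a log2 fold change of at least 1 numbered 111 (0.89%). Their median was 1.28 with DMSO and 0.83 with iBET, and 79 of them (71.2%) were called higher with iBET, against 14.2% of all genes tested. The 103 genes (0.826%) that fell as far had medians of -1.17 and -0.63, and 54 of them (52.4%) were called lower with iBET, against 14.7%. A median in the comparison that chose the genes is pulled away from 0 by the choice, so the reverse is given too. The 74 genes that rose by at least 1 with iBET had medians of 1.36 with iBET and 1.26 with DMSO, and the 63 that fell had -1.13 and -0.75.

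The levels reached with iBET could nevertheless differ from those with DMSO at a similar fold change. Irg1 averaged 16.3 ± 7.63 with Ova and 189.8 ± 45.4 with IC in the DMSO groups (CPM, SD, n = 5), a log2 fold change of 3.57 ± 0.18, and the difference between the responses was -0.02 ± 0.31 (adjusted p = 0.99). Each of its IC libraries with iBET was below every IC library with DMSO, the lowest of which was at 141 CPM. Il1b averaged 9.98 ± 3.64 with Ova and 27.4 ± 14.8 with IC in the DMSO groups, a log2 fold change of 1.35 ± 0.22, with a difference between the responses of 0.81 ± 0.35 (adjusted p = 0.36). Hmox1 averaged 96.2 ± 23.4 with Ova and 479 ± 48.3 with IC in the DMSO groups and gave a difference of -0.32 ± 0.18 (adjusted p = 0.55). Tnf gave 1.79 ± 0.18 with DMSO and a difference of -0.66 ± 0.25 (adjusted p = 0.27). A missed threshold does not show that these responses were equal. Of the 24 genes with the largest rises and falls, 23 were also called with DMSO, the exception being Col20a1, and 3 had a called difference between the responses (Klf10, Arrdc4 and Evi2b). By point estimate, 7 of the 12 rises and all 12 falls were larger with iBET than with DMSO, which is the direction that their choice by the iBET comparison favours.

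**Figure D4:**
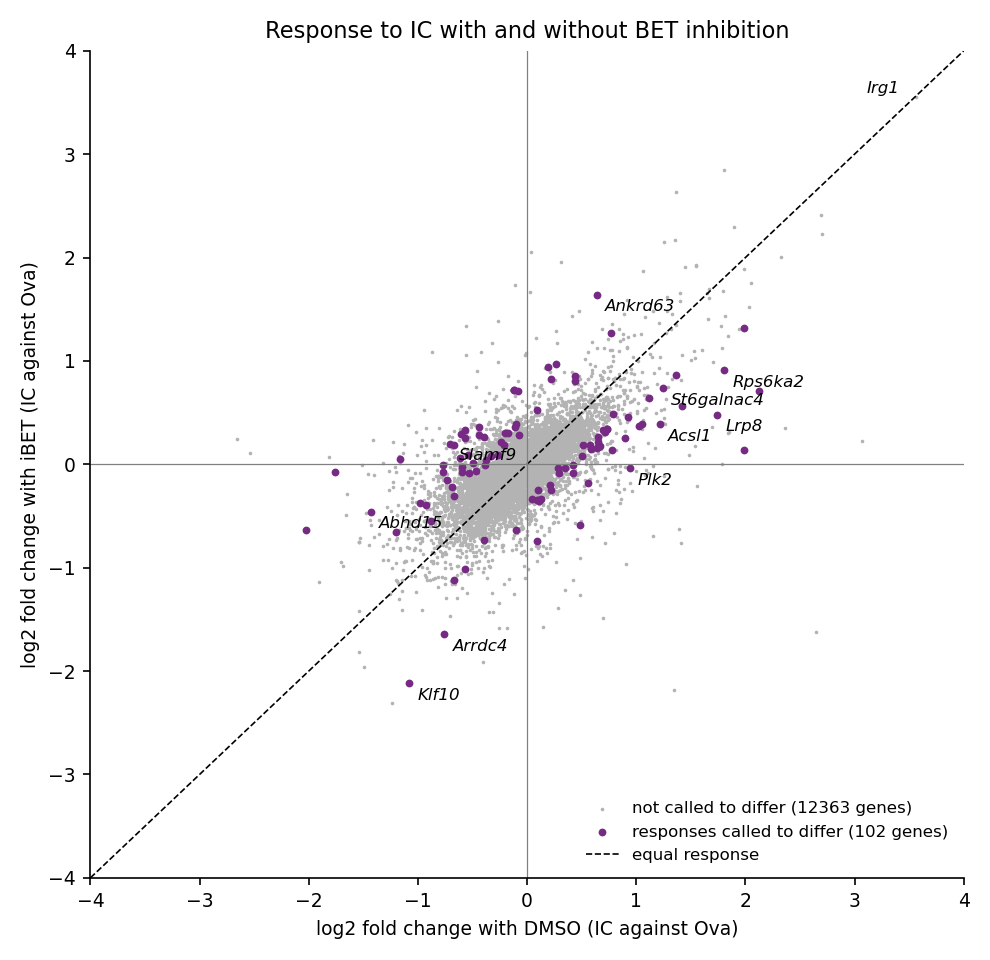
Log2 fold change of IC against Ova with DMSO (x axis) and with iBET (y axis) for the 12465 genes tested, with the 102 genes whose responses were called to differ in purple and the line of equal response dashed. Irg1 lies on the line, Rps6ka2, Lrp8, Acsl1 and Plk2 lie below it on the right, and Klf10 and Arrdc4 lie below it on the left.

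The difference between the responses was tested directly, and 102 genes passed (0.818%), 50 with a higher (0.401%) and 52 with a lower (0.417%) log2 fold change with iBET, of which 4 (0.0321%) and 5 (0.0401%) differed by at least 1. In 46 of them the response with iBET was smaller and in the same direction, 29 being rises and 17 falls, in 14 it was larger, and in 42 the point estimates had opposite signs, with both responses called in 10 genes and 1 of the responses in the other 32. The count is sensitive, with 5 genes without the mouse as a block, 184 by DESeq2, 0 in mice A and B only by edgeR (1845 at an unadjusted p under 0.05) and 14 without mouse D. Of the 10 genes described next, which had the smallest adjusted p among genes with a mean of at least 100 counts, 6 lost their call without the block and all 10 did so in mice A and B only.

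Of these genes, 4 had a smaller rise with iBET than with DMSO. Rps6ka2, the ribosomal S6 kinase RSK3 (chr17:7170115-7303315), was at 60.3, 58.5, 65.6, 67.01 and 64.4 CPM with Ova and 109.6, 105, 140.4, 114 and 127 CPM with IC under iBET (0.91 ± 0.07), against a log2 fold change of 1.80 ± 0.07 with DMSO, a difference of -0.89 ± 0.10 (adjusted p = 0.00021). Its Ova level was 39.3 ± 5.09 CPM with DMSO, and each of those libraries was below every Ova library with iBET. Lrp8, the apolipoprotein E receptor 2 (chr4:107802261-107876840), was at 14.4, 14.9, 12.9, 10.7 and 11.6 CPM and 16.9, 17.6, 22.9, 14.97 and 17.9 CPM with iBET (0.48 ± 0.10, adjusted p = 0.0023) and gave 1.74 ± 0.11 with DMSO (difference -1.26 ± 0.15, adjusted p = 0.0004). Acsl1, a long-chain acyl-CoA synthetase, gave 0.39 ± 0.07 with iBET and 1.22 ± 0.07 with DMSO (difference adjusted p = 0.00044), and St6galnac4, a sialyltransferase, 0.73 ± 0.05 and 1.24 ± 0.05 (adjusted p = 0.00048). Plk2, a polo-like kinase induced by stress, was at 91.1, 79.7, 110.4, 74.6 and 109.6 CPM with Ova and 79.6, 79.2, 115, 80.2 and 98.2 CPM with IC under iBET, with no call (-0.04 ± 0.09, adjusted p = 0.78), while it rose with DMSO from 63.1 ± 17.8 to 120.3 ± 28.2 CPM (0.94 ± 0.09). Under iBET the Plk2 groups overlapped almost fully.

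The other 5 differed in other ways. Klf10 fell by 2.12 ± 0.08 with iBET and 1.08 ± 0.07 with DMSO on the log2 scale (adjusted p of the difference 8.7e-05), and Arrdc4 by 1.64 ± 0.06 and 0.76 ± 0.06 (adjusted p = 3.4e-05). The Ova level of Arrdc4 averaged 154 ± 14.9 CPM with DMSO, each library being below all 5 Ova libraries with iBET, while the IC ranges overlapped. Ankrd63, which encodes an ankyrin repeat protein, was at 9.78, 9.54, 9.04, 14.3 and 10.4 CPM with Ova and 34.2, 26.2, 32.7, 40.4 and 32.1 CPM with IC under iBET, a rise of 1.64 ± 0.08 against 0.64 ± 0.08 with DMSO (adjusted p of the difference 0.00017). Abhd15, a lipase-like protein of the insulin pathway, fell less with iBET (-0.46 ± 0.07) than with DMSO (-1.43 ± 0.10), from 56.6, 46.6, 43.6, 44.6 and 44.3 CPM to 38.7, 38.6, 32.4, 32.00 and 29.8 CPM with iBET and from 7.69 ± 0.943 to 2.81 ± 0.486 CPM with DMSO. Its levels with DMSO were far below those with iBET in both groups. Slamf9, a SLAM family receptor, gave 0.20 ± 0.09 with iBET (adjusted p = 0.11) and -0.70 ± 0.08 with DMSO, so its point estimates had opposite signs. Among list members with a called difference, Txnrd1 rose less with iBET (0.87 against 1.37), Tnip3 more (0.97 against 0.26), Dok2 fell less (-0.39 against -0.92) and Scd2 more (-0.73 against -0.39). Their levels differed too. With Ova and IC, Tnip3 averaged 8.24 and 15.98 CPM with iBET, against 63.5 and 73.8 CPM with DMSO. Dok2 averaged 10.8 and 8.26 CPM against 108 and 56.97 CPM. Scd2 averaged 288 and 173 CPM against 436 and 333 CPM, and Txnrd1 339 and 620 CPM against 180 and 463 CPM.

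**Figure D5:**
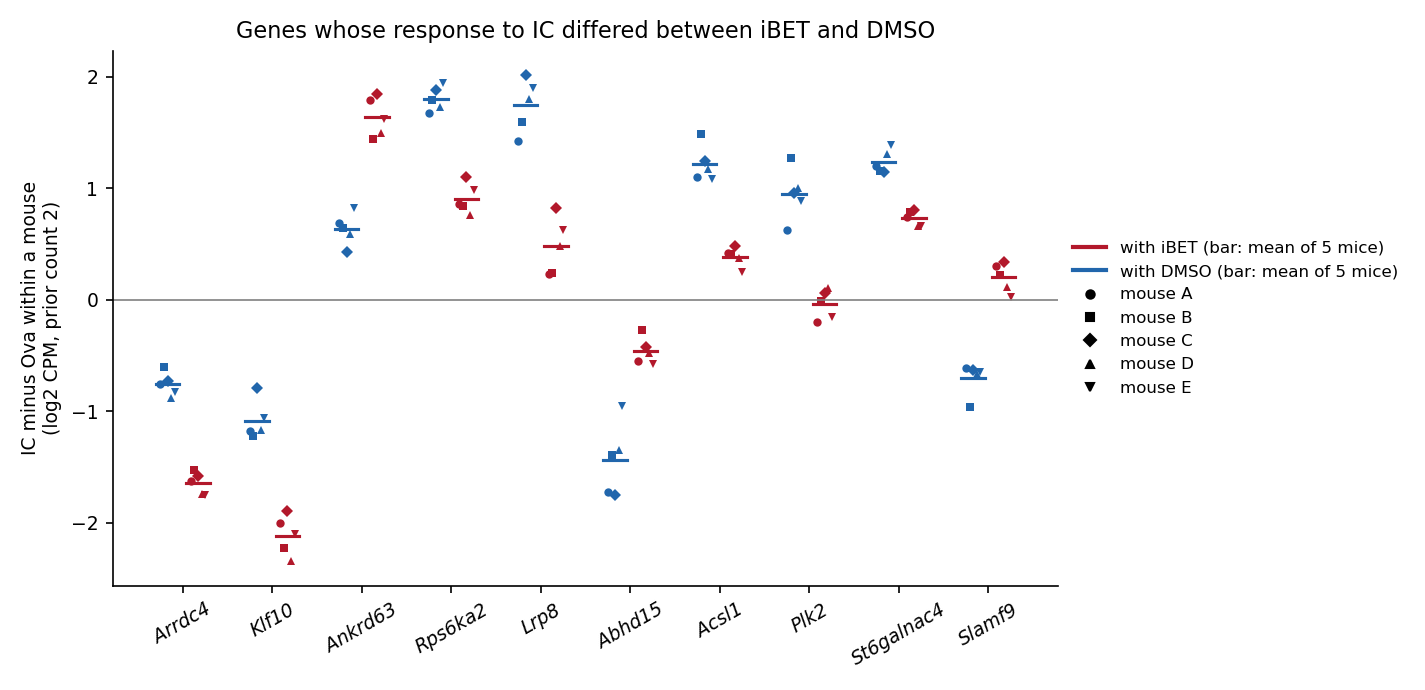
Difference between the IC and the Ova library within each mouse (y axis, log2 CPM with a prior count of 2) for the 10 genes with the smallest adjusted p for the difference between the responses, with DMSO in blue and with iBET in red, 1 symbol a mouse and a bar at the mean of 5 mice. The red and blue symbols do not mix for any of the 10 genes, and Plk2 with iBET lies around 0.

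By list, 27 of 36 proliferation genes were called lower with iBET and 17 with DMSO, and 23 and 14 of 32 ATF4 genes, while chemokine ligands (14 and 15 of 19 higher), lysosome genes (32 and 33 of 44), NRF2 genes (20 and 20 of 24) and NF-κB genes (16 and 17 of 31) were called as given in brackets with iBET and DMSO. Among all genes tested, 14.2% were called higher and 14.7% lower with iBET, and 18.3% and 19.8% with DMSO. The medians with iBET and DMSO were -0.32 and -0.19 for proliferation genes and -0.32 and -0.16 for ATF4 genes, against 0.50 and 0.73 for chemokine ligands. A count past the threshold in one comparison and not in the other is no test of a difference, and in the proliferation list 1 gene, Ccnb1 (named after its values were seen), and in the ATF4 list 1, Slc3a2 (likewise), passed the test of the difference itself. Ccnb1 fell with iBET (-0.34) and gave 0.04 with DMSO. Slc3a2, the heavy chain of amino acid transporters, gave 0.15 with iBET and rose with DMSO (0.58).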

How the data were processed

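RNA of 20 BMDC cultures (5 mice, 4 groups, 5 libraries a group) was sequenced. Per the labels and methods, libraries were made with a stranded pico-input kit, reads were trimmed with Trim Galore and aligned to mm10 with HISAT2, and featureCounts gave the deposited raw counts per gene. Versions, annotation and strand setting are not given in the sources used here. The deposited signal values are, by their ratios to the counts, the authors' counts divided by 1 size factor per library.

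Counts were tested with edgeR 4.0.16 (quasi-likelihood, TMM, filterByExpr, Benjamini-Hochberg adjustment over 12465 of 24421 genes) in 1 fit of 20 libraries, with the group and the mouse as terms. Libraries with the same mouse letter come from 1 animal, and their deviations from group means correlated at 0.31 or more in all 30 pairs (mean 0.52). Whether cultures of a mouse were separate beyond treatment is not stated, so p-values measure the spread between these libraries. No 2 libraries of a group agreed within sampling noise (the lowest chi-square was 12.5 times its degrees of freedom over 40 pairs).

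Named genes were the 12 largest rises and falls with iBET (adjusted p under 0.05, the same direction in 5 of 5 mice, a mean of at least 100 counts, no predicted genes), the 10 genes with the smallest adjusted p for the difference between the responses, up to 6 members of each list by p, and single genes of IC and BET biology, of which some results are not reported here. Genes outside this rule, apart from the markers that check the cell type, are said to be named after their values were seen. The members and lists were chosen with earlier results of these data known. Positions are from GENCODE M21 (mm10), matched for 24045 symbols. Alternatives were DESeq2 1.42.0, limma 3.58.1 on log2 of the signal plus 1, sva 3.50.0, other scaling, no filter, no block and fewer mice. The scripts were tested on simulated data.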

Additional observations from a re-analysis of the deposited data

Results flagged for a closer look

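In 5 of 46 genes examined, 1 mouse stood apart from the other 4 in its log2 difference between IC and Ova with iBET, where chance sets 1 apart in about 1 in 20. Mouse E had -0.62 for Mtus1 (others -1.22 to -1.08), -0.62 for Fcgr1 (others -0.15 to -0.05) and -0.13 for Fcgr3 (others 0.19 to 0.28). Mouse A had -1.41 for Myc (others -0.96 to -0.87), and mouse C had 1.76 for Fcgr4 (others -0.35 to 0.25), a gene under 1 CPM.

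The response with iBET differed from that with DMSO by the test of the difference in 102 genes. Among the named genes, the iBET response minus the DMSO response on the log2 scale was -1.04 for Klf10, -0.88 for Arrdc4, -0.44 for Evi2b, 1.00 for Ankrd63, -0.89 for Rps6ka2, -1.26 for Lrp8, 0.97 for Abhd15, -0.98 for Plk2, -0.83 for Acsl1, -0.51 for St6galnac4 and 0.90 for Slamf9.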

How the results depend on the processing

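With no replicate block, that is without the pairing by mouse, 1474 genes were called with iBET, 2531 with DMSO and 5 for the difference between the responses, and 1113 were called the same way with both. In mice A and B only the counts were 1458, 1265, 0 and 507, the 0 being by edgeR with 1845 genes at an unadjusted p under 0.05. In mice C, D and E only they were 2038 with iBET, 65 for the difference and 1557 shared. An adjusted p under 1e-05 left 235, 427, 0 and 161 genes (for the difference, 1395 at an unadjusted p under 0.05 and 14 by DESeq2 at 1e-05), and a log2 fold change of at least 1 left 137, 214, 9 and 63. DESeq2 gave 184 genes for the difference and surrogate variables 34. Leaving out 1 mouse at a time gave 2392 to 3818 genes with iBET, 14 to 61 for the difference and 1700 to 2475 shared, the lowest being without mouse D, D and C (1719 shared without D). For the difference, each of the other mice left out also moved the count by over 1.5 times (55 without A, 37 without B, 15 without C, 61 without E). The settings for the shared count were chosen after seeing the data. The 12 largest rises kept direction and call in 192 of 192 alternatives, and the 12 falls in 191, the exception being Myc. The 10 genes named for the difference kept theirs in 133 of 150, and none changed sign. All these genes were chosen from the same libraries, so these counts are no independent support.

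Some log2 fold changes changed sign, mostly of genes near 0. Plk2 ranged from -0.0728 to 0.00076, Fcgr2b from -0.058 to 0.010, Fcgr4 from -0.13 to 0.26 and Cd40 from -0.0029 to 0.11 with 1 mouse left out. Scaling by library size only gave -0.0072 for Fcgr4 and -0.044 for Cd40, mice A and B only gave -0.099 for Cd80, which was called higher over all mice, and -0.14 for Cd40, and mice C, D and E only gave 0.00087 for Fcgr2b. The cause was not tested.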
